A study of Caenorhabditis elegans with 2 samples.

Results

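The regions described here are the peaks of the homeobox protein CEH-100 on the X chromosome of Caenorhabditis elegans. They are all rows on X of the authors' joint ranked peak list, 2887 of 20849 rows, and 17940 rows on the 5 autosomes served for comparison. The remaining 22 rows lay on the mitochondrial genome and were left out. Of the 2887 X peaks, 128 are also in the authors' conservative list, which follows a global irreproducible discovery rate (IDR) of at most 0.01, against 1557 autosomal peaks. Across 6 nuclear chromosomes, 8.09% of ranked rows were in the conservative list. The experiment was chromatin immunoprecipitation and sequencing (ChIP-seq) with an antibody against GFP. The animals were whole young adults of strain RW12233, 64 hours old, which carries st12233[ceh-100::TY1::EGFP::3xFLAG], CEH-100 joined to a GFP tag, on chromosome II. They were grown from larvae synchronised by starvation after bleaching, as 2 biological replicates of a single group, so no treatment or genotype is compared. Whole animals mix all tissues, germline included. Therefore more cells with the protein at a site and more protein per cell cannot be told apart. Positions are those of the ce11 assembly, and genes are those of WBcel235.

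Hermaphrodites of C. elegans carry a pair of X chromosomes and males a single one. The dosage compensation complex, a condensin-based complex, loads onto X in hermaphrodites at recruitment sites whose shared motif contains GCGCAGGG, and lowers transcription from X in somatic cells. In the germline most X-linked genes are kept silent. X is also rich in transfer RNA (tRNA) genes, which RNA polymerase III transcribes from promoters inside the gene. The B box of these promoters, bound by the polymerase III factor TFIIIC, contains GTTCGA. Homeobox proteins commonly bind sequences with a TAAT core.

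The following windows reach 50 bases to either side of a summit. They were read from the RefSeq copy of WBcel235, are given as the plus strand of chromosome X, and are shown because they carry the sequence features described below. In the tRNA windows the capitals mark GTTCGA on either strand, the core of the B box.
chrX:9743579-9743679, tRNA-Ala gene F15G9.t1 in an intron of him-4: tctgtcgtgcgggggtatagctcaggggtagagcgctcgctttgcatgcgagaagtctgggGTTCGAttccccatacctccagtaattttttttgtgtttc
chrX:6292276-6292376, tRNA-Ala gene T07H6.t2: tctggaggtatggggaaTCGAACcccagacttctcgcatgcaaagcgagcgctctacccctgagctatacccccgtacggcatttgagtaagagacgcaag
In the next windows, away from tRNA genes and starts, the capitals mark GCGNAGGG on either strand.
chrX:4209231-4209331, intergenic near F20B6.9: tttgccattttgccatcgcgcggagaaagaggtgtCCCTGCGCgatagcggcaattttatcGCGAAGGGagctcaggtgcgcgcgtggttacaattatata
chrX:6296529-6296629, intron of mom-1: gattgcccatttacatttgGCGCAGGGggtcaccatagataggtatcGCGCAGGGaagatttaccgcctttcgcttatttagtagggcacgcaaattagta
chrX:806659-806759, intergenic near gtr-1: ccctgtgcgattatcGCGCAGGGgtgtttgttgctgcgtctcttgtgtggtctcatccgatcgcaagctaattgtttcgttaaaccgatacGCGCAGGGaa
chrX:11094179-11094279, intergenic near W02H3.3: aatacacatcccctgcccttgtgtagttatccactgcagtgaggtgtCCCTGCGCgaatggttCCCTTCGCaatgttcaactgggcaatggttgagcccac
The last windows lie in tandem repeats, and the capitals mark TTCTAGAA in the conservative peak of highest signal on X, TGAACGGC in the ranked peak of highest signal on X, and GAGAGTAAA on either strand in the window after it.
chrX:1375202-1375302, intergenic near fbxa-190: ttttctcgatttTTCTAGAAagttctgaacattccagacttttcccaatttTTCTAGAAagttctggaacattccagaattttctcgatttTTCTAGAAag
chrX:15811059-15811159, intergenic near Y7A5A.7: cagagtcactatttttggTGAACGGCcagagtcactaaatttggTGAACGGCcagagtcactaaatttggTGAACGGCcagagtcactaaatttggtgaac
chrX:5056874-5056974, intergenic near C24H10.4: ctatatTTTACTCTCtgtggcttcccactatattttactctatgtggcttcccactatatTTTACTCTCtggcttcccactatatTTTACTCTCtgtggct

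X carried few conservative peaks for its number of ranked peaks. Of the ranked peaks on X, 4.43% were in the conservative list, with a 95% Wilson interval of 3.74 to 5.25%, against 8.68% on autosomes (8.28 to 9.10%). The difference was −4.25 percentage points, with a 95% Newcombe interval of −5.06 to −3.34. All intervals cover counting error only, since peaks of a single pair of libraries are not replicates of a condition. Every autosome had a higher share than X, and the lowest of them was 6.53% on V. X held 163 ranked peaks per Mb, against 183 per Mb on V, the lowest of the autosomes, and 253 per Mb on III, the highest. In conservative peaks it held 7.22 per Mb, against 11.9 per Mb on V, the lowest of the autosomes, and 25.8 per Mb on I, the highest. Set against gene number, the order differed. X has 2731 protein-coding genes, 2887 ranked and 128 conservative peaks, and V has 4994 genes, 3831 ranked and 250 conservative peaks. For its genes X had more ranked peaks than II and V, but fewer than I, III and, narrowly, IV. In conservative peaks for its genes X was still the lowest, but close to V. Neither the depth of the libraries nor the level of a control can be read from the lists.

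Among the conservative peaks on X, those beside tRNA genes outnumbered those at protein-coding starts. A peak was called beside a tRNA gene when its summit was within 250 bp of one, and at a start when it was not beside a tRNA gene but within 500 bp of a protein-coding transcript start. By this division 67 of 128 conservative X peaks were beside tRNA genes (52.3%, 43.7 to 60.8%), 13 at starts (10.2%) and 48 at neither (37.5%). On autosomes 105 of 1557 were beside tRNA genes (6.74%), 892 at starts (57.3%) and 560 at neither (35.97%). The tRNA share on X was 43.2% in the thresholded list of replicate 1, 55.8% in that of replicate 2 and 45.9% among all X peaks at a global IDR of at most 0.01. The shares were different among the X peaks outside the conservative list. Of these 2759 peaks 4.75% were beside tRNA genes, 21.8% at starts and 73.5% at neither, against 0.855%, 32.0% and 67.1% of 16383 autosomal peaks.

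**Figure D1:**
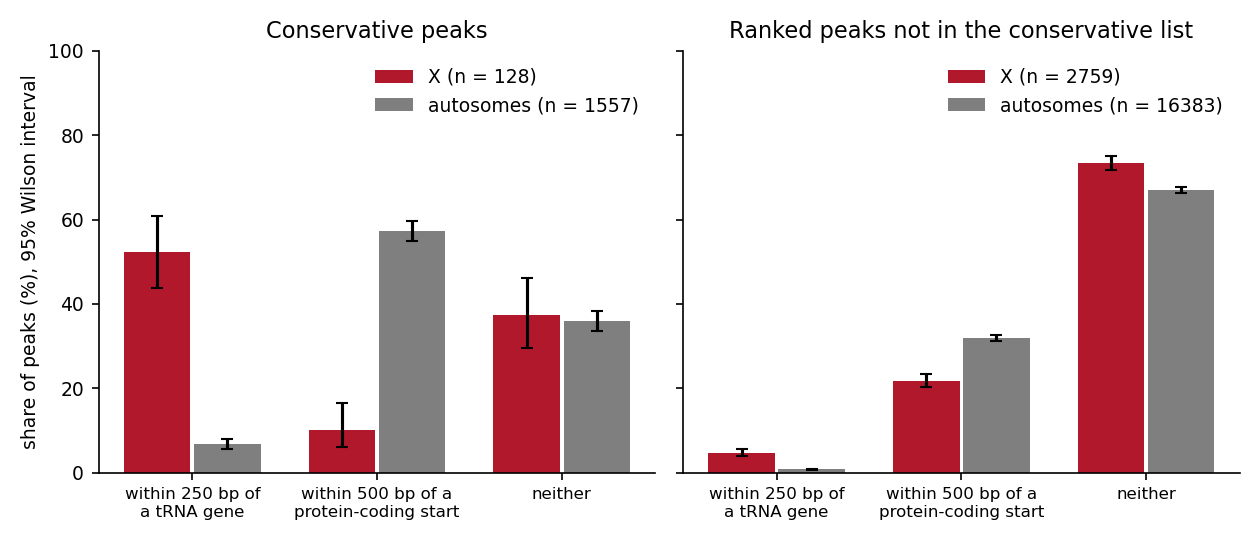
Share of peaks (%) beside tRNA genes, at protein-coding starts or at neither, on X (red) and autosomes (grey), for conservative peaks (left) and the other ranked peaks (right); bars are shares and lines 95% Wilson intervals. In the conservative list 52.3% of X peaks and 6.74% of autosomal peaks were beside tRNA genes.

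The classes also differed in how many of their ranked peaks reached the conservative list. Beside tRNA genes it was 67 of 198 on X (33.8%) and 105 of 245 on autosomes (42.9%), a difference of −9.02 points whose interval, −17.8 to 0.108, included 0. At starts it was 13 of 614 on X (2.12%) and 892 of 6141 on autosomes (14.5%), a difference of −12.4 points (−13.7 to −10.7). At neither it was 48 of 2075 on X (2.31%) and 560 of 11554 on autosomes (4.85%), a difference of −2.53 points (−3.23 to −1.70). In points the difference between X and autosomes was widest at starts, but the interval beside tRNA genes covers the whole interval at starts.

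Counted per tRNA gene, the share with a conservative peak was lower on X by an amount near the counting error. X carries 276 of 612 nuclear tRNA genes (45.1%), which is 15.6 per Mb against 3.73 to 4.64 per Mb on the autosomes. A conservative summit lay within 250 bp of 74 of 276 X tRNA genes (26.8%) and of 113 of 336 autosomal ones (33.6%). The difference of −6.82 points had an interval of −14.0 to 0.522, which includes 0. The interval excluded 0 when summits were counted within 100 bp (−7.87, −14.8 to −0.672), within 500 bp (−7.58, −14.8 to −0.172) and in the list of replicate 1 alone (−8.36, −14.4 to −2.08), but not in the list of replicate 2 alone (−1.77, −8.34 to 4.95). A ranked summit lay beside 209 X tRNA genes (75.7%) and 244 autosomal ones (72.6%), a difference of 3.11 points (−3.91 to 9.96). Thus 135 X tRNA genes had a ranked but no conservative summit, and 67 had none.

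Conservative summits on X were found beside tRNA genes of 17 of 20 isotypes. The isotype is the amino acid that the tRNA carries, as RefSeq names it, and 3 of the 276 genes have none. tRNA-Ala genes had the highest share, 8 of 13, followed by 6 of 14 each for tRNA-Thr and tRNA-Val, against 10 of 21, 8 of 20 and 6 of 17 on autosomes. tRNA-Glu had 8 of 23, against 8 of 18 on autosomes, and tRNA-Arg, the isotype with the most genes on X, had 6 of 27, against 7 of 17. No conservative summit lay beside any of the 7 tRNA-Cys, 9 tRNA-His or 5 tRNA-Trp genes on X, although 7, 5 and 3 of them had a ranked summit. On autosomes 4 of 6 tRNA-Cys, 1 of 11 tRNA-His and 2 of 7 tRNA-Trp genes had a conservative summit. With so few genes per isotype these counts are given as a description.

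Most of the summits beside tRNA genes sat within them, and their median position was close to the 5′ end. On X the median offset from the 5′ end, counted in the direction of transcription, was 23 bp (95% interval of the median 16 to 38, n = 67), against 12 bp (5 to 20, n = 105) on autosomes. The summit lay inside the gene for 48 X peaks (71.6%), upstream for 10 and downstream for 9. On autosomes it lay inside for 60 (57.1%), upstream for 37 and downstream for 8. Among the peaks outside the conservative list the median offsets were 27 bp on X (n = 131) and 29 bp on autosomes (n = 140). tRNA genes are about 72 bp long at the median on X, and the conservative peaks beside them have a median width of 316 bp. The offsets are thus small against the width of a peak.

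**Figure D2:**
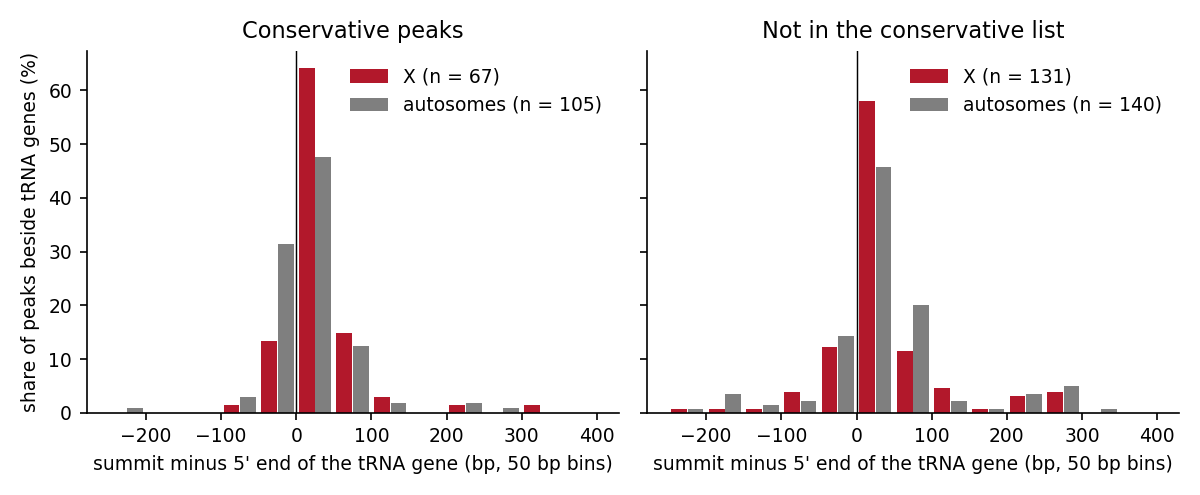
Position of summits relative to the 5′ end of the nearest tRNA gene (bp, in the direction of transcription, 50 bp bins) for X (red) and autosomes (grey); bars are the share (%) of the peaks beside tRNA genes, with conservative peaks on the left and the others on the right. The 50 bp after the 5′ end hold most X peaks in both panels.

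Of the 33 conservative X peaks in introns 28 were beside a tRNA gene, and of all 901 ranked X peaks in introns it was 72. Of the X tRNA genes, 95 (34.4%) lie in introns of protein-coding genes, against 188 of 336 (56.0%) on autosomes. A conservative summit lay beside 28 of these 95 on X (29.5%) and beside 46 of the 181 outside introns (25.4%). On autosomes it was 60 of 188 (31.9%) and 53 of 148 (35.8%). Of the 128 conservative summits on X, 91 were intergenic (71.1%), 33 in introns (25.8%), 3 in coding exons, 1 in a 5′ UTR and 0 in 3′ UTRs, and a count of 0 among 128 allows up to 2.91% by the Wilson interval. On autosomes 64.0% were intergenic and 21.8% in introns, so the intron difference of 4.01 points (−3.11 to 12.4) was within counting error. Away from tRNA genes and starts 5 of 48 X peaks were intronic (10.4%), against 167 of 560 autosomal ones (29.8%).

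Most tRNA windows hold sequence that also occurs elsewhere in the genome. A 31-base sequence found more than once in the nuclear genome was present in the window of 57 of 67 conservative tRNA peaks on X (85.1%) and of 88 of 105 on autosomes (83.8%). The windows at F15G9.t1 and T07H6.t2 printed above show this, as the same tRNA-Ala sequence stands on opposite strands. With all such windows left out, the difference in tRNA share of conservative peaks between X and autosomes was 17.4 points, against 45.6 points (36.9 to 54.1) with them, and X held 4.35% of the conservative peaks, against 7.60% with them. How reads that match several places were treated is not given in the sources used here, so the gene behind a given tRNA peak is uncertain.

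GTTCGA was frequent at these peaks on X and on autosomes. It stood in 30 of 67 conservative tRNA windows on X (44.8%) and in 42 of 105 on autosomes (40.0%), read on both strands. Of all non-overlapping windows of the same length, 3.44% on X and 3.79% on autosomes hold it. The tRNA windows lie beside tRNA genes by definition, and the B box of these genes contains GTTCGA. A share above that of all windows thus follows from how the class was made and is no result about the peaks. TAATTA stood in 1 of 128 conservative X windows (0.781%) and in 29 of 1557 autosomal ones (1.86%), against 5.23% of all X windows and 4.64% of all autosomal windows. The median GC content of conservative windows was 50.5% on X and 47.5% on autosomes, against 40.6% and 39.6% for ranked peaks outside the list.

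The strongest tRNA peaks on X showed the range within the class. At C33G3.t2, a tRNA-Lys gene, the peak at chrX:14063956-14064097 had a signal of 244, with 93.8 and 151 in the first and the second input list. Signal is the enrichment that the authors' lists give for each peak and has no unit. The first and the second input list hold the values that the joint list gives from its inputs. Of the 128 conservative X peaks, 127 had exactly the interval and signal of the ranked list of replicate 1 in the first. In the second, 128 had those of replicate 2. Over all 2887 ranked X peaks the match was found for 66.2% and 67.5%, and 0 matched the ranked list of the other replicate. For peaks without a match the replicate behind an input value is less certain. At F15G9.t1, a tRNA-Ala gene in an intron of the basement membrane gene him-4, the signal was 229, with 117 and 110 in the input lists. At C04A11.t1 and W02H3.t1, both tRNA-Leu genes, it was 209 and 184. Over all 67 peaks the first input list ranged between 39.9 and 117 and the second between 39.1 and 151.

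Protein-coding genes on X seldom had a conservative peak at a start. Counting genes, 20 of 2731 on X had a conservative summit within 500 bp of a start (0.732%), against 1086 of 17242 on autosomes (6.30%), a difference of −5.57 points (−6.02 to −5.04). In the ranked list it was 472 on X (17.3%), against 4617 on autosomes (26.8%), a difference of −9.49 points (−11.0 to −7.89). Counting peaks with those beside tRNA genes included, 19 of 128 conservative X summits were within 500 bp of a start (14.8%), against 922 of 1557 (59.2%). This difference was −44.4 points (−50.0 to −36.8), and −26.9 points with starts counted within 200 bp.

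All 13 X start peaks away from tRNA genes lay upstream of the start, between 4 and 389 bp from it, against 726 of 892 on autosomes (81.4%). The highest, at chrX:15841219-15841327, was 300 bp upstream of serp-1.1, with a signal of 282 and 167 and 108 in the first and the second input list. The next was 166 bp upstream of sec-3, a gene named for a subunit of the exocyst, with a signal of 162 and 87.2 and 78.4. The third was 313 bp upstream of puf-9, which encodes a Pumilio-family RNA-binding protein, with 133 and inputs of 66.9 and 72.1. T13C5.6 followed with 120. At rpl-11.2, a gene for a ribosomal protein of the large subunit, the signal was 118 at 389 bp upstream, with 65.5 and 41.4. Of these 5, the first 3 overlapped the thresholded lists of both replicates, T13C5.6 that of replicate 2 and rpl-11.2 neither.

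Lower start peaks on X had signals of 108 and less. The peak 185 bp upstream of uggt-1, a gene for a glucosyltransferase of glycoprotein folding in the endoplasmic reticulum, had a signal of 103. The peak 154 bp upstream of trap-2, which encodes a subunit of the translocon-associated protein complex, had 103. It was also within 500 bp of a start of ile-2. That 161 bp upstream of mans-3, named for a mannosidase, had 94.2. The peak 79 bp upstream of mdl-1, which encodes a Mad-like basic helix-loop-helix protein, had 89.5. The lowest start peak, at ZC506.1, had 4.62 and is described with its neighbour below. None of the 4 at uggt-1, trap-2, mans-3 and mdl-1 was in the thresholded lists of both replicates.

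Further X starts within 500 bp of a conservative summit were also beside a tRNA gene. In egl-17, which encodes a fibroblast growth factor, the summit was 147 bp downstream of the start and inside tRNA-Asp gene F38G1.t2, with a signal of 161. In C52G5.2 it was inside tRNA-Val gene C52G5.t1, with 140. In C28G1.2 it was inside tRNA-Glu gene C28G1.t1, with 124, and also within 500 bp of a start of sec-15. In unc-58, a potassium channel gene, it was inside tRNA-Arg gene T06H11.t2, with 115. At ZK1193.2 it was 81 bp from tRNA-Gln gene R04A9.t1, with 114. Which gene such a peak belongs to cannot be told apart.

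The start peaks on X were weaker than those on autosomes. Their median signal was 104 (95% interval of the median 89.7 to 133, n = 13), against 147 (137 to 153, n = 892). In the first input list the medians were 58.2 and 74.0 for X and autosomes, and in the second 46.7 and 79.6. The 13 include both rows at ZC506.1, with signals of 108 and 4.62, which share their input peaks. The thresholded lists of both replicates overlapped 3 of the 13 X start peaks (23.1%), against 529 of 892 autosomal ones (59.3%). For tRNA peaks this share was 26 of 67 on X (38.8%), against 49 of 105 (46.7%), a difference of −7.86 points (−22.2 to 7.27).

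The 48 conservative X peaks at neither a tRNA gene nor a start included most of the strongest. Of the 15 X peaks of highest conservative signal, 10 were of this class, 4 were beside tRNA genes and 1 was at a start, and all 15 overlapped the thresholded lists of both replicates. Of the 48, 40 were intergenic (83.3%), against 319 of 560 on autosomes (57.0%). More than 2000 bp from any start and away from small RNA genes lay 28 of them (58.3%), against 157 of 560 (28.0%), a difference of 30.3 points (15.7 to 43.6). A single X peak of the class was within 250 bp of a small RNA gene other than tRNA (2.08%), against 92 on autosomes (16.4%).

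Many of these peaks held GCGNAGGG. The motif, read on both strands, stood in the window of 13 of 48 X peaks of this class (27.1%) and of 0 of 560 autosomal ones, which allows up to 0.681% by the Wilson interval. It was chosen after the windows of highest signal had been read, so its frequency in them is a description. Of all windows of the same length, 0.207% on X and 0.173% on autosomes hold it. Over all conservative peaks it stood in 14 of 128 windows on X (10.9%) and in 1 of 1557 on autosomes (0.0642%). Over whole intervals, which are mostly longer than the windows, it stood in 19 of 128 on X (14.8%) and in 17 of 1557 on autosomes (1.09%). Of the 14 X windows, 9 held GCGCAGGG and 9 GCGAAGGG, some of them both. In the X peaks outside the conservative list it stood in 22 of 2759 windows (0.797%), against 57 of 16383 (0.348%) on autosomes.

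The same count was made in each replicate's own thresholded list. In replicate 1 the motif stood in 14 of 81 X windows (17.3%) and in 1 of 1085 autosomal ones (0.0922%). In replicate 2 it stood in 10 of 95 X windows (10.5%) and in 1 of 1238 (0.0808%). The replicate lists rest on the same libraries as the joint list and are no independent support. Of the 14 X peaks 12 were intergenic and 10 overlapped the thresholded lists of both replicates. A repeated 31-mer was present in 1 of the 14.

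The signals of the peaks with GCGNAGGG are given as a description, since the motif was chosen from windows of high signal and higher values follow from that choice. Within the class of 48 their median was 195 (143 to 227, n = 13), against 116 (108 to 125, n = 35) for those without. In the first input list the medians were 108 (70.6 to 123) and 60.03 (51.4 to 63.9), and in the second 83.8 (63.1 to 106) and 57.7 (53.3 to 62.2), for those with and without the motif. Of the 20 peaks of highest signal in the class 11 held the motif, and of the other 28 it was 2. The 22 X peaks with the motif outside the conservative list had a median signal of 48.9 (34.8 to 69.0).

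The strongest of the GCGNAGGG peaks stood at chrX:4209184-4209378, 1796 bp upstream of F20B6.9, with a signal of 296 and 149 and 145 in the input lists. At chrX:6296502-6296590, in an intron of mom-1, the Porcupine gene needed for Wnt secretion, the signal was 237, with 138 and 100. At chrX:806629-806758, 3931 bp downstream of the start of gtr-1, it was 227, with 117 and 106. At chrX:11094193-11094308 it was 216, with 117 and 114, and at chrX:13700744-13701059 it was 215, with 123 and 87.4. In each of these 5 peaks the first input list was the higher. The peak at chrX:8036378-8036466 was the single one with the motif that counted as a tRNA peak, 240 bp from C18A11.t2. It had a signal of 130, and the nearest start was that of xol-1, the sex determination switch gene, at 4868 bp.

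**Figure D3:**
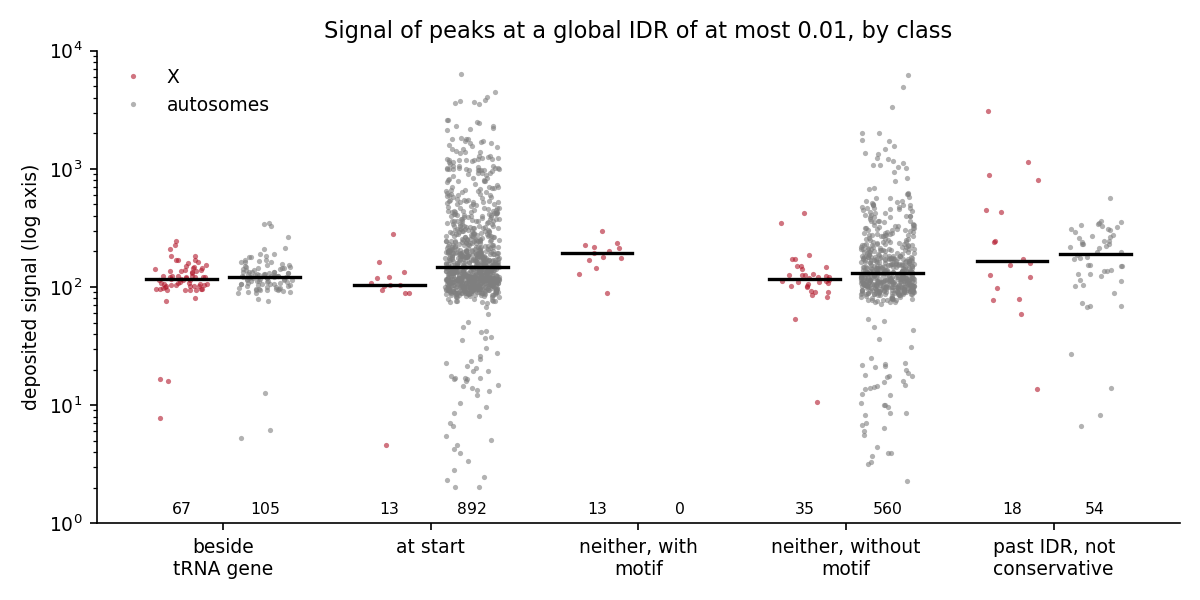
Deposited signal (log axis) of peaks at a global IDR of at most 0.01 on X (red) and autosomes (grey); each point is a peak, black lines are medians and the numbers are counts of peaks, with conservative peaks divided by class and by GCGNAGGG and those past the IDR but not in the conservative list on the right. The X peaks with the motif had a median of 195, and the right-hand column holds the highest X signal.

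A further 8 of the 48 peaks had TTCTAGAA in the window (16.7%), against 27 of 560 on autosomes (4.82%). This motif too was chosen after the windows were read, and 0.569% of all X windows and 0.717% of all autosomal windows hold it. On X all 8 windows were at least 90% soft-masked, the mark of repeats in the reference, and all held repeated 31-mers. The peak of highest conservative signal on X, at chrX:1375120-1375279, was among them, with a signal of 423 and 189 and 236 in the first and the second input list. At chrX:2057906-2058092 the signal was 348, with 160 and 171, and the other 6 ranged between 116 and 152. In such repeats the peak's position among copies is uncertain.

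The highest signals on X were not in the conservative list. At a global IDR of at most 0.01, the limit that the conservative list follows, 146 X peaks passed, and 128 of them were in the list (87.7%), against 1557 of 1611 on autosomes (96.6%). The difference was −8.98 points (−15.3 to −4.48). The 18 X peaks that passed but were absent formed 9 loci. All 18 were intergenic and held repeated 31-mers, and 16 of the windows were at least 90% soft-masked. None overlapped a thresholded peak of either replicate. Why they are absent is not given in the sources used here.

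The peak at chrX:15810941-15811208 had the highest signal of all X rows, 3078, with 1584 and 1612 in the input lists, and was the 12th of all nuclear rows by signal. At chrX:293322-293510 the signal was 1144, with 428 and 749. At chrX:11785745-11785916 it was 894, with 431 and 480, and at chrX:15808100-15808283 it was 812, with 400 and 462. At chrX:5056874-5057031 it was 445, with 172 and 238. In all 5 the second input list was the higher, and 6 of the 18 exceeded the highest conservative X signal. GAGAGTAAA, chosen after reading them, stood in 9 of the 18 windows, against 12 of 54 on autosomes (22.2%) and 0.236% of all X windows. Several of these 9 windows were neighbours at the same locus, so the count is of peaks and not of separate loci.

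Conservative signals on X were lower than on autosomes, chiefly in the upper range. The median was 120 (112 to 124, n = 128) on X and 136 (132 to 140, n = 1557) on autosomes, a ratio of 0.882. In the first input list the medians were 60.8 and 70.0, and in the second 59.6 and 71.8, for X and autosomes. At 200 or more lay 12 X peaks (9.38%), against 446 autosomal ones (28.6%), a difference of −19.3 points (−23.8 to −12.6). The highest X value of 423 was exceeded by 195 autosomal peaks, and X had 0 of the 100 conservative peaks of highest signal and 1 of the top 200. These counts depend on the X peaks of highest signal being absent from the conservative list. In the whole ranked list X had 3 of the top 100 and 6 of the top 200. Among the X peaks outside the conservative list the median was 37.7, against 38.04 on autosomes. There the 131 X peaks beside tRNA genes had a median of 65.3, against 62.9 for the 140 on autosomes.

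By class the ratio of the medians was lowest at starts. Beside tRNA genes they were 117 (107 to 124) and 122 (116 to 128), a ratio of 0.958. At neither they were 125 (113 to 149) and 130 (122 to 137), a ratio of 0.960. At starts the ratio was 0.710. In the whole ranked list the medians were 38.4 on X and 39.7 on autosomes.

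Both input lists ordered the X peaks in a similar but loose way. Over the 122 distinct pairs of input peaks behind the 128 conservative X peaks, Spearman's rho was 0.582, and over the 1459 pairs on autosomes it was 0.778. The points of a list share a library and its depth. The higher of each pair exceeded the lower by 1.17 times at the median on X, and by more than 2 times for 1 peak, in fbxl-4 at tRNA-Phe gene T28B4.t1, with 45.5 and 103. Autosomal signals spanned a wider range, up to 6296, and its part in the higher rho was not tested. The thresholded list of replicate 1 overlapped 67 of 128 X peaks (52.3%), that of replicate 2 overlapped 78 (60.9%), and both overlapped 49 (38.3%), against 869 of 1557 on autosomes (55.8%). Neither list overlapped 32 on X, against 294 on autosomes (18.9%).

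**Figure D4:**
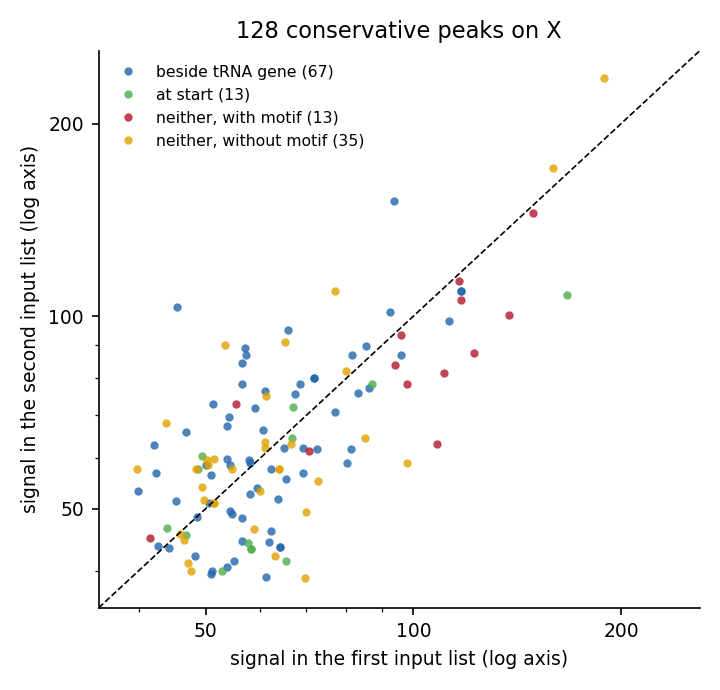
Signal of the 128 conservative X peaks in the first (x axis) and second (y axis) input list, both on log axes, coloured by class; the dashed line marks equal values. Peaks with GCGNAGGG away from tRNA genes and starts (red) reach 149 and 145, and most peaks lie between 39 and 110 on both axes.

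Of the conservative X peaks, 6 had a signal below 75, and each shared both input peaks with an overlapping neighbour of higher signal. At chrX:9958798-9959113, upstream of ZC506.1, the signal was 4.62, and the neighbour at chrX:9958595-9958910 had 108. At chrX:9743674-9743989 it was 7.81, beside the 229 of the F15G9.t1 peak. These 2 were the lowest. The low value belongs to the joint row, since the input values, 58.2 and 43.3 for the ZC506.1 pair and 117 and 110 for the F15G9 pair, are the same in both rows.

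The IDR limit divided X peaks of like signal. Just inside were chrX:351457-351772, between tRNA-Leu gene C04E7.t1 and sor-3, with an IDR of 0.00986, a signal of 109 and inputs of 69.6 and 39.03, and chrX:14951806-14952121, in an intron of pag-3, with 0.00965, a signal of 82.4 and inputs of 47.7 and 40.0. Just outside were chrX:10154480-10154795, 179 bp upstream of F09B9.5, with a signal of 82.7 and inputs of 46.9 and 40.0, and chrX:8156000-8156315, beside tRNA-Met gene F22F1.t6, with 76.5 and inputs of 42.4 and 42.9.

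Along X, conservative peaks were spread over the whole chromosome. When X was divided into 10 equal parts, each held between 9 and 17 conservative peaks and between 218 and 340 ranked peaks. The first summit stood at 169782 and the last at 17611370, the median gap was 117777 bp and the widest 535278 bp. Peaks beside tRNA genes were most numerous in the eighth part, with 15 of 17 conservative peaks and 53 tRNA genes. The fifth part had 54 tRNA genes but 7 such peaks. In the first part 9 of 13 conservative peaks, and in the tenth 8 of 13, were at neither a tRNA gene nor a start. Within 5000 bp of another conservative summit lay 33 of the 128, in 14 groups of which 4 had at least 3 members. The largest had 4 summits between 2058023 and 2059136, and 3 of their windows held TTCTAGAA.

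**Figure D5:**
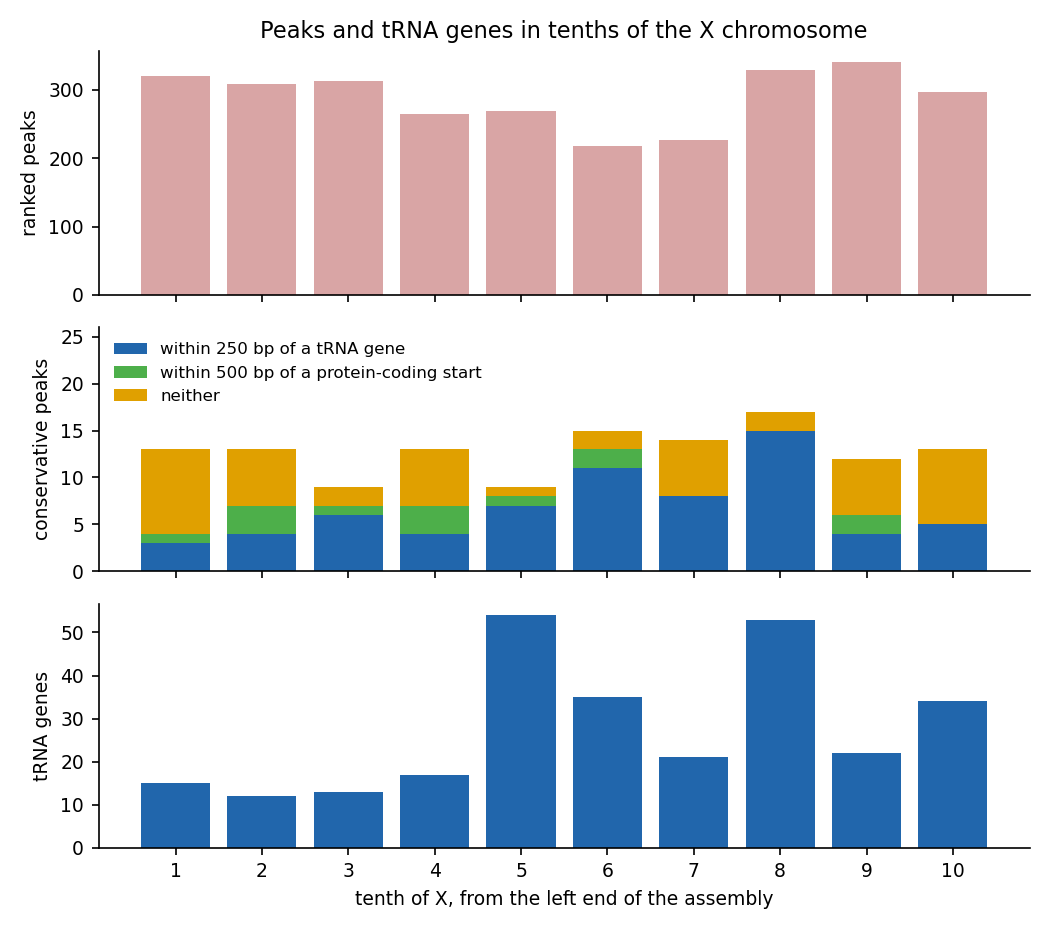
Number of ranked peaks (top), of conservative peaks by class (middle) and of tRNA genes (bottom) in 10 equal parts of X, from the left end of the assembly. Conservative peaks number 9 to 17 in each part, and the tRNA genes are most numerous in the fifth and eighth.

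Few protein-coding genes on X had a peak at a start, 0.732% in the conservative and 17.3% in the ranked list, against 6.30% and 26.8% on autosomes, and the counts in the following small lists are read against these shares. Of 10 genes for subunits of the dosage compensation complex 2 are on X, sdc-1 and sdc-2, and 0 of these had a ranked summit within 500 bp of a start, against 4 of 8 on autosomes. None of the 10 had a conservative one. With so few members a count of 0 is near the share over all X genes. The nearest conservative summit to sdc-1 was 4434 bp away, at tRNA-Glu gene F52E10.t5, with a signal of 94.9. Of the genes listed for the X signal or sex determination 4 are on X. Among them fox-1, an RNA-binding protein gene, had a ranked peak with a signal of 43.7 and inputs of 18.8 and 30.4. The gene ceh-39, a ONECUT homeobox gene, had one of 33.8, with 34.95 and 21.8, and xol-1 and sex-1 had none. On autosomes 4 of 9 such genes had a ranked and 0 a conservative summit.

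At the share of 0.732% over all X genes, counts of 0 among yolk and timing genes are not a result about them. Of 6 vitellogenin genes, which encode yolk proteins made in the adult intestine, 5 are on X. Ranked peaks stood at vit-2, with a signal of 64.7 and inputs of 30.6 and 39.1, and at vit-5, with 73.1 and inputs of 43.4 and 31.6, and 0 of 5 had a conservative summit. Both signals were above the median of 37.7 of X peaks outside the list. Of the heterochronic genes, which time larval development and of which 7 of 9 listed were found, lin-14 and hbl-1 are on X. A ranked peak stood 85 bp from a start of lin-14, with 53.6 and inputs of 33.1 and 21.9, and none at hbl-1. Of 78 ribosomal protein genes 2 are on X. Both had a ranked peak, rpl-11.2 as above and rpl-25.1 with 67.0, and 1 of 2 had a conservative summit, against 45 of 76 on autosomes. The 74 X-linked microRNA genes had 1 with a conservative summit within 250 bp (1.35%), against 9 of 187 on autosomes (4.81%), and the 33 snoRNA genes had 1 (3.03%), against 85 of 313 (27.2%). The 3 snRNA genes on X had 0, against 39 of 126 on autosomes.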

How the data were processed

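Anti-GFP ChIP-seq of 2 biological replicates was read from the authors' deposited peak lists on ce11. No source used here gives the aligner, the peak caller or their settings. The deposited signal is the enrichment that the authors' caller gave each peak, has no unit, and was used within a list. The deposited score is the authors' scaled IDR score, at most 1000. The authors' ranked lists give the −log10 of the global IDR, limited to 5. The lists hold no counts, so depth is unknown. Whether the replicates came from separate cultures is not stated, and 2 input columns of the other joint list were not used. Members, windows, gene lists and motifs were chosen with earlier results of these data known.

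Rows of the joint ranked and conservative lists were matched by chromosome, start, end and summit. Summits were compared with Ensembl release 115 (WBcel235, 29304 distinct protein-coding starts) within 500 bp of starts and 250 bp of small RNA genes. tRNA isotypes came from RefSeq, for 607 of 612 genes. Windows of 50 bp to either side of summits were searched on both strands, and 31-mers occurring more than once in the nuclear genome were marked. X minus autosome differences have 95% Newcombe intervals, shares 95% Wilson intervals and medians exact order-statistic intervals, and no test across peaks was run.

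The peaks named are the 15 conservative X peaks of highest signal, the 10 of highest signal near starts, the 5 of highest signal over 2000 bp from starts, the 5 ranked ones of highest signal outside the list, those of lowest signal or next to the threshold, and X-linked list members. Others named were chosen after their values were seen. Alternatives were each replicate's lists, the other joint lists, other windows, an IDR of 0.001, interval centres, an overlap of 1 bp and peaks beside small RNA genes left out. Added after seeing the data were 1 row per pair of input peaks, an IDR of 0.01 and repeated 31-mers left out. The distances to tRNA genes and starts and the 3 kinds of interval were tested on simulated data, and the other steps were not. Tables were handled with pandas 2.3.3 and numpy 2.4.6 in Python 3.11.15. Intervals used scipy 1.17.1, and figures matplotlib 3.10.9.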

Additional observations from a re-analysis of the deposited data

How the results depend on the processing

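Of 105 alternative values, 79 stayed within counting error of the reported ones. Every result kept its direction under every alternative run except the intron share, whose reported interval included 0. The share of tRNA genes with a conservative summit had an interval that included 0 or excluded it, depending on the window and the replicate. Differences are X minus autosomes in percentage points. With peaks beside small RNA genes left out, X held 4.35% of conservative and 13.3% of ranked peaks, the conservative share differed by −5.34 and the intron share by −8.71. With windows holding repeated 31-mers left out, chosen after seeing the data, X held 4.35% of conservative peaks. There the differences were −5.58 for the conservative share, −3.95 for introns, 17.4 for tRNA genes in the conservative and 0.996 in the ranked list, and the ranked median ratio was 0.944. With 1 row per pair of input peaks, also added later, that ratio was 0.948. At an IDR of 0.001 the conservative share differed by −2.80 and the conservative median ratio was 0.783. In the other joint lists X held 14.4% of ranked peaks, and the ranked start share differed by −10.8. With starts counted within 200 bp the start share differed by −26.9 in the conservative and −7.53 in the ranked list, and within 1000 bp by −16.0 in the ranked list.

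With either replicate left out, X held 14.1 to 16.5% of ranked peaks. The differences ranged from −4.47 to −3.20 for the conservative share, from −14.1 to −9.86 for starts in the ranked list, from 36.9 to 50.2 for tRNA genes in the conservative list and from 3.50 to 6.11 in the ranked list. The median ratios ranged from 0.778 to 0.801 for conservative and from 0.950 to 0.961 for ranked peaks. No paired analysis was possible because the samples form a single group. The lists give no depth, so the precision of single signals is unknown.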
